A study of Mus musculus with 58 samples.

Results

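The Dlk1-Meg3 domain is an imprinted cluster on distal mouse chromosome 12, and its 5 named genes were followed here in every library of a chromatin-associated RNA sequencing (ChrRNA-seq) series. Members were chosen by name, as the rows for Meg3, Rian, Mirg, Dlk1 and Rtl1 among 22556 annotated genes. No measured value served as a filter, but earlier results of these data were known when they were chosen. The series holds 58 libraries in 28 groups, 26 groups of 2 and 2 groups of 3, from 6 female mouse embryonic stem (ES) cell lines that share a hybrid genome, with 1 set of chromosomes from the 129S strain (termed Dom) and the other from Cast. The study induced Xist, the RNA that silences an X chromosome, and asked how silencing depends on the SPOC domain of the Spen protein and on Polycomb, so every comparison below reads an autosomal domain in cells made for another question.

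All lines carry a doxycycline-inducible promoter in place of the native Xist promoter on the Dom X chromosome. WT has this change alone, SPOC adds mutation of the Spen SPOC domain, and PCGF35 adds an FKBP12 degron tag on the Polycomb subunits PCGF3 and PCGF5. PCGF35_SPOC carries the tag and the SPOC mutation together, DelPID lacks the B/C repeat (PID region) of Xist, and DelPID_SPOC is DelPID with the SPOC mutation introduced. By the study's description its clone G of DelPID_SPOC, taken here to be G3, is tetraploid. Cells were taken as ES cells before doxycycline (ES d0, 13 libraries) or after 1 day of it (ES d1), and after 3 or 6 days of doxycycline with differentiation towards neural progenitor cells (NPC d3 and NPC d6). This gave 26 ES and 32 NPC libraries. Doxycycline was used at 1 μg/mL. The 2 degron lines were sampled untreated (ctrl) and with 100 μM dTAG-13, the compound that directs tagged proteins to degradation, given 12 h before doxycycline. WT and DelPID have NPC libraries only. Replicates of PCGF35_SPOC are clones F10 and F6, those of DelPID_SPOC clones A8 and G3, and those of SPOC clones D9 and H1, with C11 added in ES cells. Replicates of WT, PCGF35 and DelPID carry a number, and the study describes them as duplicate experiments, with untreated and dTAG-13 cells grown side by side. Replicates of these lines are cultures of 1 line each. ES cells were grown on feeder fibroblasts that were removed by pre-plating. Libraries of 1 replicate pair differed beyond sampling noise in all 32 pairs.

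Genes of this domain are expressed from 1 parental chromosome. On the maternal chromosome a long run of non-coding RNAs is made, of which Meg3, Rian and Mirg are the annotated blocks, and they host many microRNAs and small nucleolar RNAs. Dlk1, a membrane protein with EGF-like repeats related to Notch ligands, and Rtl1, a protein derived from a retrotransposon, are made from the paternal chromosome. A differentially methylated region between Dlk1 and Meg3 carries the imprint, and loss or gain of its methylation is a known form of instability in cultured pluripotent cells. The labels do not say which parent gave which genome, so alleles are called Dom and Cast here.

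In mm10 coordinates the members run in the order Dlk1 (chromosome 12, 109452822 to 109463336), Meg3 (109540995 to 109571729), Rtl1 (109590168 to 109595403), Rian (109603944 to 109661711) and Mirg (109734980 to 109749457). Rtl1 lies on the minus strand and the others on the plus strand. Counts cover the whole annotated span of a gene, introns included. No member shares a strand with an overlapping gene, and Rtl1 is overlapped on the opposite strand by 6430411K18Rik (109591536 to 109592851).

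The sequence upstream of Meg3 is shown because Meg3 had the largest rise in median level of the 3 non-coding members. RefSeq (GRCm38.p6) has a promoter entry for 4 members, Rtl1 being the exception. The 250 bases that end at the annotated Meg3 start, chr12:109540746-109540995 on the plus strand, hold the cAMP response element TGACGTCA 57 bases upstream of the start and, 190 bases upstream, GCGGCA, which is the reverse complement of TGCCGC, the hexamer bound by the imprint protector ZFP57. Both are in capitals, and each distance runs from the first base of the motif with the start base counted.

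Meg3 upstream: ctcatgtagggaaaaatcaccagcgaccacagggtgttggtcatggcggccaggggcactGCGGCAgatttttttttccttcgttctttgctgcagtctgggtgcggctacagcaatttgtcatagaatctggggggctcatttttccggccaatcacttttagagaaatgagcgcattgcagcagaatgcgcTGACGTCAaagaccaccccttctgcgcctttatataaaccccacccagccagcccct

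Searched on both strands, TGACGTCA is present in 508 of 32851 promoter windows of this length (1.55%) and TGCCGC in 2850 (8.68%). Neither motif is in the windows of Dlk1, Rian, Mirg or the second annotated Meg3 start. A match is a description of letters and no measurement of binding.

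Between Dlk1 and the end of Mirg, RefSeq lists 57 microRNA hairpins, 54 of them on the plus strand, and 112 mature microRNAs with 102 different seeds. Rian spans 3 of the hairpins and Mirg 10. These microRNAs were not counted on their own, and the examples show what the measured transcripts carry, with the seed (bases 2 to 8) in capitals. The first is read from Meg3, the next pair opposite Rtl1, then 1 from Rian and 1 from Mirg.

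miR-770-5p: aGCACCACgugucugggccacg
miR-127-3p: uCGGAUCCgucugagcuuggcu
miR-433-3p: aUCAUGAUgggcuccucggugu
miR-370-3p: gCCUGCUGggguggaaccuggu
miR-410-3p: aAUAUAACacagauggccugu

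miR-379-5p and miR-1193-5p, which lie between Rian and Mirg, share the seed GGUAGAC.

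miR-379-5p: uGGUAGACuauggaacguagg
miR-1193-5p: uGGUAGACcggugacguaca

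Libraries held 2292261 to 30005305 counted fragments, of which 44.2 to 49.6% could be given to 1 allele. The shallowest was DelPID NPC d6 replicate 1. The 10 pluripotency markers summed to a median of 1795 CPM (fragments scaled to the library total) in ES libraries and 717 in NPC d6, and the 10 neural markers to 137 and 215. Map2 made up much of the neural sum, with medians of 97.0 CPM in ES libraries and 107 in NPC d6, and 5 neural markers had medians under 1 CPM in both. Of the pluripotency markers only Pou5f1 had the higher median in NPC d6 (47.2 and 61.1 CPM). Sox2 and Sox1 are listed at 0 in every library, so neither could serve as a check. The 12 feeder fibroblast markers summed to at most 67.3 CPM in ES libraries and to 25.8 to 220 CPM in NPC libraries. In bulk samples, fewer cells that make an RNA and less of it per cell cannot be told apart.

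The 3 non-coding RNAs were among the most abundant chromatin-bound transcripts of these cells. By mean CPM over all 58 libraries, Rian ranked 3rd, Meg3 ranked 20th and Mirg ranked 77th of 22556 genes, and together they took 0.390 to 1.25% of the fragments of a library. Dlk1 ranked 13757th and Rtl1 14914th, near the floor of detection. Per length, the median level in ES libraries was 65.2 FPKM (fragments scaled to the length of the span and to library size) for Rian, 39.0 for Mirg and 34.1 for Meg3, and in NPC libraries 111, 75.3 and 71.3. On the same scale Dlk1 stood at 0.0968 in ES and 0.0823 in NPC, and Rtl1 at 0.0254 and 0.13. The ranges of the non-coding members did not meet those of the protein-coding members in either stage, while Mirg and Meg3 overlapped each other.

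**Figure D1:**
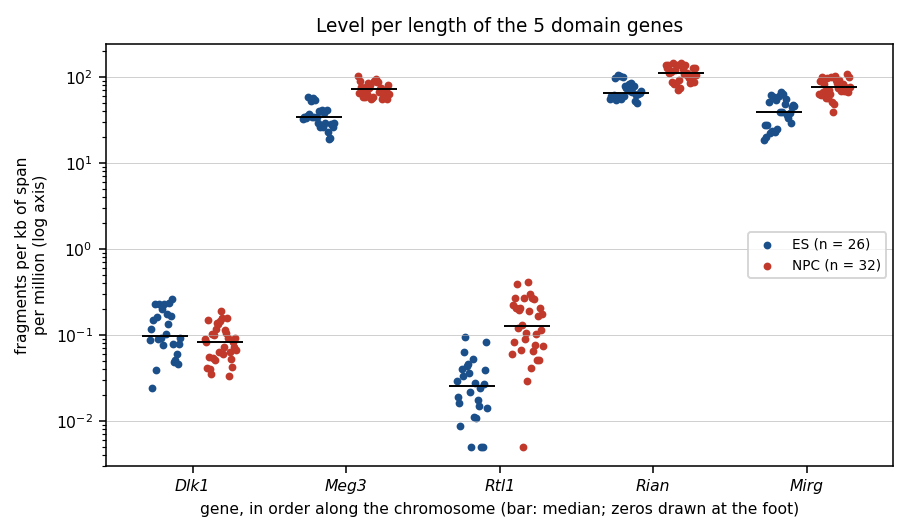
Level per length (FPKM, log axis) of the 5 members in chromosomal order, 1 point per library, ES libraries in blue and NPC libraries in red, bars at the median and libraries with no Rtl1 fragment drawn at the foot. Meg3, Rian and Mirg sit between 18.5 and 144 FPKM, while Dlk1 stays at or below 0.257 and Rtl1 at or below 0.407.

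All 3 non-coding RNAs were higher in NPC than in ES libraries. Meg3 ranged from 578 to 1772 CPM (median 1048) in the 26 ES libraries and from 1698 to 3130 CPM (median 2190) in the 32 NPC libraries, and 28 of the NPC libraries lay above the highest ES library. Rian ranged from 2882 to 6026 CPM (median 3767) in ES and from 4054 to 8324 CPM (median 6428) in NPC, with 20 NPC libraries above every ES library. Mirg ranged from 267 to 971 CPM (median 565) in ES and from 564 to 1545 CPM (median 1090) in NPC, with 22 above. The medians were higher 2.09-fold for Meg3, 1.71-fold for Rian and 1.93-fold for Mirg, and the ranges overlapped for each of them. The highest ES values of Meg3 and Rian all came from clone F10 of PCGF35_SPOC.

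**Figure D2:**
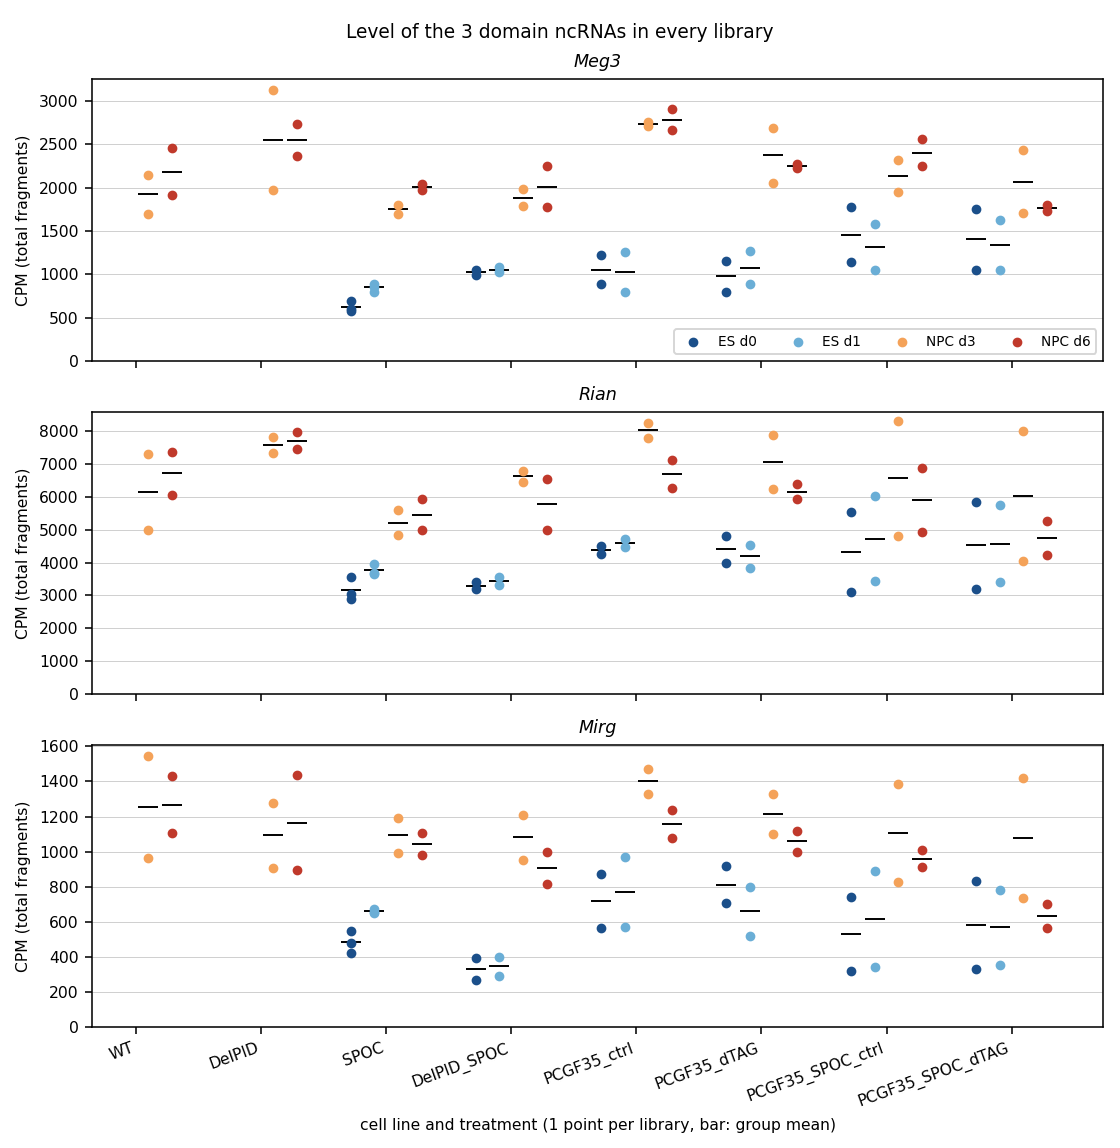
Level (CPM of all counted fragments) of Meg3, Rian and Mirg by cell line and treatment, 1 point per library coloured by stage and day, with a bar at each group mean. Meg3 rises from 578 to 1772 CPM in ES cells to 1698 to 3130 CPM in NPCs.

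Within lines, NPC d6 was tested against ES d0 of the same line and treatment with edgeR's quasi-likelihood test, adjusted over all 16227 genes tested. The 18 fitted changes of the 3 non-coding RNAs over 6 such comparisons were all positive, from 0.09 to 1.77 on the log2 scale, and 7 passed the threshold. In SPOC, Meg3 was at 694, 578 and 600 CPM in ES d0 and at 2046 and 1976 CPM in NPC d6. It rose by 1.77 ± 0.25 (SE, log2, adjusted p = 2.7e-06), the largest change of Meg3. Rian rose by 0.87 ± 0.27 (adjusted p = 0.014) and Mirg by 1.20 ± 0.38 (adjusted p = 0.016) in the same line. With Rtl1, 4 of the 5 members were called higher in SPOC, where 17.3% of all genes tested were.

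PCGF35 cells showed a rise of Meg3 with and without dTAG-13. Untreated, Meg3 went from 892 and 1220 CPM in ES d0 to 2909 and 2665 CPM in NPC d6, a change of 1.43 ± 0.28 (adjusted p = 0.00037). With dTAG-13 it went from 798 and 1156 CPM to 2233 and 2273 CPM, a change of 1.22 ± 0.28 (adjusted p = 0.0049). The 2 libraries of each stage did not overlap in either arm. Meg3 and Rtl1, 2 of the 5 members, were called higher in each arm, against 13.6% of all genes untreated and 4.46% with dTAG-13. Rian and Mirg did not pass in these arms, with group means 1.53 and 1.62 times the ES d0 mean untreated and 1.40 and 1.30 times with dTAG-13. With the replicate number, which the study does not tie to an experiment, as a block in edgeR, Mirg passed untreated (0.75, adjusted p = 0.019).

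In DelPID_SPOC, Meg3 went from 991 and 1053 CPM to 2250 and 1773 CPM, a rise of 0.98 ± 0.28 (adjusted p = 0.014), and Mirg went from 267 and 395 CPM to 998 and 817 CPM, a rise of 1.45 ± 0.43 (adjusted p = 0.019). Those were 2 of the 5 members, against 9.83% of all genes called higher. Rian, at 3192 and 3405 CPM and then 6563 and 4986 CPM, was not called by edgeR (adjusted p = 0.059) and was called by DESeq2 (0.77, adjusted p = 0.049).

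PCGF35_SPOC was the line in which no member was called, with 0 of 5 in either arm by edgeR, where 2.9% of all genes untreated and 2.33% with dTAG-13 were called higher. Untreated, Meg3 was at 1772 CPM (F10) and 1144 CPM (F6) in ES d0 and at 2562 and 2246 CPM in NPC d6, a change of 0.75 ± 0.28 (adjusted p = 0.090). With dTAG-13 it was at 1754 and 1054 CPM and then at 1734 and 1804 CPM, a change of 0.35 ± 0.28 (adjusted p = 0.48 by edgeR). In ES d0 clone F10 was above F6 in both arms. The difference in the Meg3 rise between PCGF35_SPOC and PCGF35 was itself tested after these values were seen, and it was -0.68 ± 0.39 untreated (adjusted p = 0.78) and -0.87 ± 0.39 with dTAG-13 (adjusted p = 1.0). By edgeR's quasi-likelihood test the rise is therefore not shown to differ between the lines.

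WT and DelPID, sampled only as NPCs, were compared between NPC d6 and NPC d3. By edgeR 0 of the 5 members were called in either line, and 0% of all genes were. Meg3 in WT stood at 2147 and 1698 CPM on day 3 and at 2454 and 1918 CPM on day 6, which overlap. In Dom share, 0 of 3 were called in either line by edgeR, where 0% of genes in WT and 0.0947% in DelPID were, and Meg3 in WT was at 0.217 and 0.210 and then at 0.223 and 0.216. With the replicate number, which the study does not tie to an experiment, as a block in edgeR, Rian was called higher in share on day 6 of WT (0.15, adjusted p = 3.1e-05).

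The calls of Meg3 in SPOC and in untreated PCGF35 held with each library left out in turn. Others were lost in 2 or more of the 4 or 5 leave-outs of their comparison, with the fitted changes of Meg3, Rian and Mirg remaining positive at 0.75 or more. The lost calls include Meg3 in DelPID_SPOC (0.75 to 1.18 over the leave-outs, lost without A8 or G3 of ES d0 or without A8 of NPC d6) and Meg3 in dTAG-13 treated PCGF35 (0.97 to 1.53, lost without ES d0 replicate 1 or NPC d6 replicate 2). Mirg in DelPID_SPOC ranged from 1.17 to 1.80 and was lost without A8 of either stage. In SPOC, Rian ranged from 0.75 to 0.98 and was lost without H1 of ES d0 or D9 of NPC d6, and Mirg ranged from 1.10 to 1.32 and was lost without those or H1 of NPC d6.

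The allele read-out split the domain from the rest of its chromosome. Dom share is the number of Dom fragments over Dom plus Cast fragments of a gene. Over chromosome 12 outside the domain and its 5 Mb flanks it was 0.365 to 0.388 per library, and over the other autosomes 0.472 to 0.532. The flanks gave 0.277 to 0.316 upstream (27 genes) and 0.274 to 0.309 downstream (44 genes), so a Cast-rich share extended over the whole distal segment and the shares of the members are read against it. Every library put Meg3, Rian and Mirg below both flanks, 58 of 58 for each. By mean Dom share Mirg ranked 6th, Meg3 8th and Rian 10th lowest of 452 genes of chromosome 12, so some other genes of it were as low.

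In ES libraries the Dom share of Meg3 was 0.130 to 0.199 (median 0.151), that of Rian 0.132 to 0.206 (median 0.159) and that of Mirg 0.114 to 0.187 (median 0.145). In NPC libraries the same genes were at 0.172 to 0.241 (median 0.212), 0.177 to 0.253 (median 0.216) and 0.156 to 0.249 (median 0.202). The highest ES value of each came from clone F10 of PCGF35_SPOC. Of the 32 NPC libraries, 23 were above the highest ES library for Meg3, 20 for Rian and 25 for Mirg. The gap to the flanks narrowed from a median of 0.139 to 0.0724 for Meg3, from 0.129 to 0.0671 for Rian and from 0.149 to 0.0810 for Mirg. The flanks themselves had medians of 0.291 upstream in ES and 0.286 in NPC libraries. Each share rests on at least 1417 allelic fragments, and Rian on at least 8616.

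**Figure D3:**
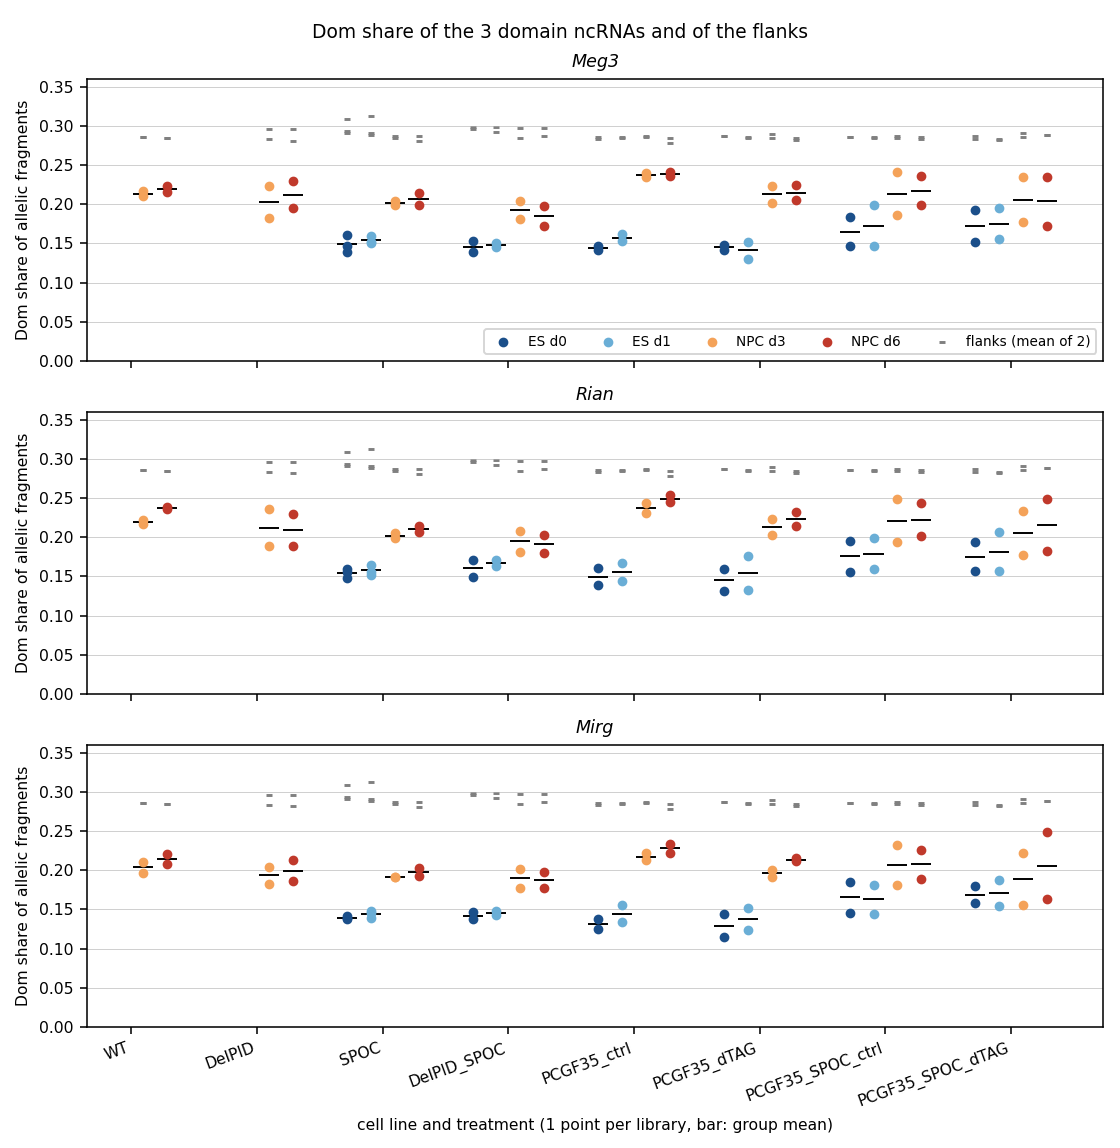
Dom share of allelic fragments of Meg3, Rian and Mirg by cell line and treatment, 1 point per library coloured by stage and day, with group means as bars and grey dashes at the mean of the 2 flanks. The shares lie below the dashes in 58 of 58 libraries and the NPC mean is above the ES d0 mean in each line and treatment with both stages.

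The 3 shares moved together from library to library. Their spread within a library was 0.00294 to 0.0316 (median 0.0145), Mirg was the lowest in 50 libraries and Rian the highest in 48. As a description, Pearson's r between shares was 0.87 to 0.94 over the 26 ES libraries and 0.92 to 0.97 over the 32 NPC libraries, all of which share cell lines, and r between the Meg3 share and that of the rest of chromosome 12 was 0.09 in ES and -0.24 in NPC libraries. For log2 CPM, r was 0.14 in ES and 0.45 in NPC libraries between Meg3 and Mirg, 0.71 and 0.74 between Meg3 and Rian, and 0.74 and 0.75 between Rian and Mirg.

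Fragments of both alleles were more numerous in NPC than in ES libraries, those of Dom by the larger factor. Median Dom fragments of Meg3 went from 47.3 to 145 CPM (3.07-fold) and Cast fragments from 279 to 565 CPM (2.03-fold), and the Cast ranges of the stages did not overlap (154 to 420 CPM against 422 to 753 CPM). The medians of Rian were 2.37-fold higher on Dom and 1.59-fold on Cast, and those of Mirg 2.62-fold and 1.70-fold. The Cast allele remained the larger source of each RNA in every library.

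The change in Dom share was tested in the same 6 comparisons by an allele-by-group term in edgeR over 11621 autosomal genes, where values are changes in the log2 ratio of Dom to Cast. All 18 were positive, from 0.29 to 0.96, and 8 passed. In untreated PCGF35, Meg3 went from a share of 0.141 and 0.147 in ES d0 to 0.236 and 0.241 in NPC d6 (0.89 ± 0.18, adjusted p = 0.0047). Rian went from 0.139 and 0.160 to 0.244 and 0.253 (0.92 ± 0.19, adjusted p = 0.0060) and Mirg from 0.1249 and 0.138 to 0.222 and 0.234 (0.96 ± 0.19, adjusted p = 0.0032). All 3 rose, where 0.645% of all genes tested did. With dTAG-13, Meg3 went from 0.142 and 0.148 to 0.205 and 0.225 (0.69 ± 0.18, adjusted p = 0.048), and Rian (0.76 ± 0.19, adjusted p = 0.036) and Mirg (0.88 ± 0.18, adjusted p = 0.0095) also rose, against 0.482% of all genes.

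SPOC cells had Meg3 shares of 0.147, 0.139 and 0.161 in ES d0 and 0.214 and 0.199 in NPC d6. Meg3 (0.57 ± 0.17, adjusted p = 0.047) and Mirg (0.61 ± 0.17, adjusted p = 0.038) rose, 2 of 3 against 1.82% of all genes, and Rian did not pass (0.55 ± 0.17, adjusted p = 0.072). With the clone as a block, fitted on this pair of groups, the calls changed: Rian passed (0.51, adjusted p = 0.0087) and Meg3 did not (0.56, adjusted p = 0.051).

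No member passed in the 3 other arms by the edgeR fit over all groups, 0 of 3 in each. The background there was 0.473% of genes higher in DelPID_SPOC, 0.0258% in untreated PCGF35_SPOC and 0.00861% with dTAG-13. At an unadjusted p under 0.05, 14 of the 24 values of all 8 comparisons over time passed, and limma on the shares called 3. In DelPID_SPOC the Meg3 share was 0.153 (A8) and 0.139 (G3) in ES d0 and 0.198 and 0.172 in NPC d6. In untreated PCGF35_SPOC it was 0.184 (F10) and 0.146 (F6), then 0.236 and 0.199. Each clone was higher in NPC d6, from its own starting share. With the clone as a block on the pair of groups compared, which leaves 1 residual degree of freedom, all 3 genes passed in DelPID_SPOC (Meg3 0.41, adjusted p = 0.011, Rian 0.31, adjusted p = 0.010, Mirg 0.47, adjusted p = 0.0048) and in untreated PCGF35_SPOC (Meg3 0.49, adjusted p = 0.0073, Rian 0.42, adjusted p = 0.011, Mirg 0.41, adjusted p = 0.038), and none in PCGF35_SPOC with dTAG-13. The difference of the rise between PCGF35_SPOC and PCGF35 did not pass for any gene.

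**Figure D4:**
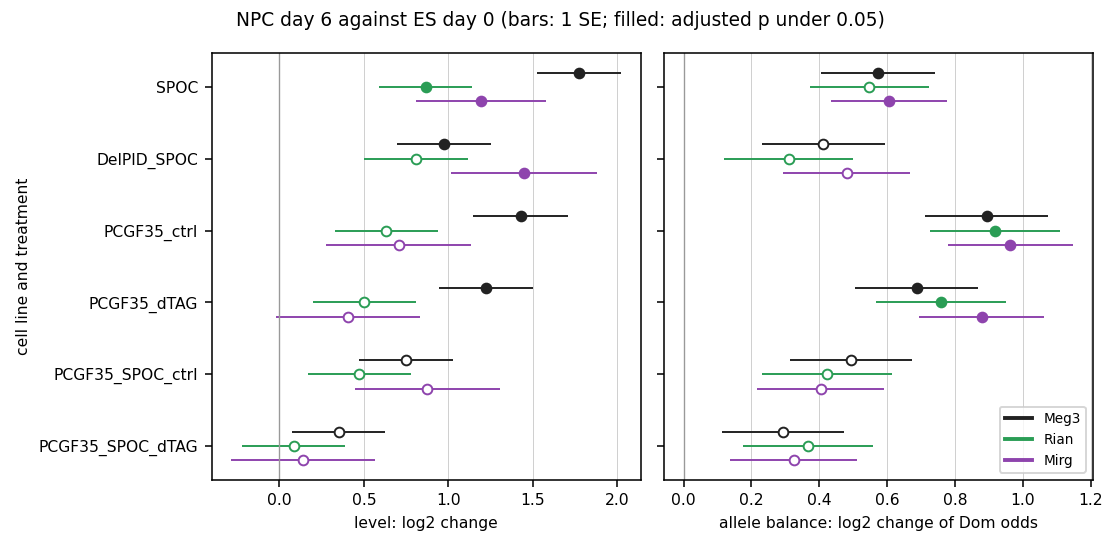
Fitted log2 change from ES d0 to NPC d6 in each line and treatment, in level and in the ratio of Dom to Cast, for the 3 non-coding RNAs, with bars of 1 SE and filled points where the adjusted p is under 0.05. All 36 points lie above 0, and PCGF35_SPOC with dTAG-13 has the smallest change in level of each gene.

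Each called rise in Dom share was lost in 2 to 5 of the 4 or 5 leave-outs of its comparison, while the fitted changes stayed between 0.51 and 1.07. In untreated PCGF35 the 3 genes were at 0.80 to 1.05 over the leave-outs, and the calls of Meg3 and Rian were lost without ES d0 replicate 1 or either NPC d6 replicate, Mirg without ES d0 replicate 1 or NPC d6 replicate 2. With dTAG-13 the range was 0.60 to 1.07, and Meg3 and Rian lost the call without any 1 of the 4 libraries, Mirg without any but ES d0 replicate 2. In SPOC, Meg3 ranged from 0.51 to 0.64 and kept its call only without H1 of ES d0, and Mirg ranged from 0.56 to 0.65 and lost it without any 1 of the 5 libraries.

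Markers moved with the same contrast. In untreated PCGF35, 8 of 9 pluripotency markers tested fell, against 15.9% of all genes. There 3 of 7 neural, 5 of 11 feeder fibroblast and 5 of 6 endoderm or extraembryonic markers rose, against 13.6%. In SPOC, 4 of 9 pluripotency markers fell and 2 of 7 neural markers rose, with 0 of 11 fibroblast markers higher. Of all genes 16.8% fell and 17.3% rose in SPOC. In DelPID_SPOC, 2 of 9 pluripotency markers fell and 1 rose, 1 of 7 neural markers rose and no fibroblast marker was called. Of all genes 9.41% fell and 9.83% rose in DelPID_SPOC. In PCGF35_SPOC, where no member was called in level, 0 of 9 pluripotency markers fell untreated and 1 with dTAG-13. Of all genes 4.47% and 3.04% fell there. Counts for PCGF35 with dTAG-13 are not given here. The part of these cell types in the rise of the 3 RNAs was not tested.

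Clones of 1 line differed at this domain. In PCGF35_SPOC the Dom share was higher in F10 than in F6 in 8 of 8 matched conditions for each non-coding RNA. Meg3 was at 0.184 to 0.241 (median 0.217) in F10 and at 0.146 to 0.199 (median 0.164) in F6, Rian at 0.194 to 0.249 against 0.156 to 0.201, and Mirg at 0.180 to 0.249 against 0.144 to 0.189. The ranges over conditions overlap because each clone was higher as NPCs, and each condition holds 1 library per clone. In a fit of the 16 libraries with condition as a term, the log2 ratio of Dom to Cast was lower in F6 by edgeR for Meg3 (-0.45 ± 0.03, adjusted p = 4.4e-09), Rian (-0.44 ± 0.03, adjusted p = 3.0e-09) and Mirg (-0.45 ± 0.05, adjusted p = 6.2e-07). These are 3 of 3 members tested, against 2.88% of 11621 genes that were lower in F6.

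Levels differed the same way. Meg3 was at a median of 1763 CPM in F10 and 1424 CPM in F6, Rian at 5941 and 3747 CPM, and Mirg at 861 and 529 CPM, with F10 higher in 7, 8 and 7 of 8 conditions. The exception for Meg3 and Mirg was NPC d6 with dTAG-13, where Meg3 was at 1734 CPM in F10 and 1804 in F6. Rian was lower in F6 by 0.74 ± 0.09 on the log2 scale (adjusted p = 0.00024), Mirg by 0.84 ± 0.20 (adjusted p = 0.0089) and Meg3 by 0.45 ± 0.11 (adjusted p = 0.0095), against 17.3% of 14732 genes tested. Dlk1, at a change of -0.48 ± 0.42 (adjusted p = 0.40), was not called, and Rtl1 had too few counts to be tested. Opposite Rtl1, 6430411K18Rik was also called lower in F6. Fragments of both alleles were more numerous in F10, with a median ratio over conditions of 1.77 on Dom and 1.33 on Cast for Meg3, 2.21 and 1.65 for Rian, and 2.81 and 2.01 for Mirg.

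All 6 of these calls held in each of 16 fits that left out 1 library, and limma on the shares called Meg3 and Rian but not Mirg (adjusted p = 0.052). The Dom share of the rest of chromosome 12 had a median of 0.375 in F10 and 0.369 in F6, and the upstream flank 0.288 and 0.287. With each library's chromosome 12 share as an offset the 3 differences were between -0.40 and -0.42. Markers of other cells differed between these clones as well. Of those tested, 5 of 6 neural, 6 of 9 feeder fibroblast and 3 of 3 endoderm or extraembryonic markers were lower in F6, against 17.3% of all genes. Higher in F6 were 3 of 9 pluripotency markers, against 17.9% of all genes. Neural markers reached 543 CPM and fibroblast markers 220 CPM in F10 NPC d6 with dTAG-13. Their part in the difference was not tested. In NPCs with dTAG-13 the Dom share of X-linked genes below the position of Xist was 0.553 on day 3 and 0.589 on day 6 in F10. In F6 it was 0.503 on both days. The study interprets an upward allelic skew in NPCs of 1 clone of this line as selection for cells that lost the Cast X. By imaging of Xist RNA in ES cells, it also saw some cells with a single X in clone F6. For that reason it sub-cloned F6 ahead of the ChrRNA-seq. The part of X loss or of sub-cloning in the difference was not tested either. Days of 1 clone are cultures of 1 cell line, so the test compares these 2 clones and no genotype.

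**Figure D5:**
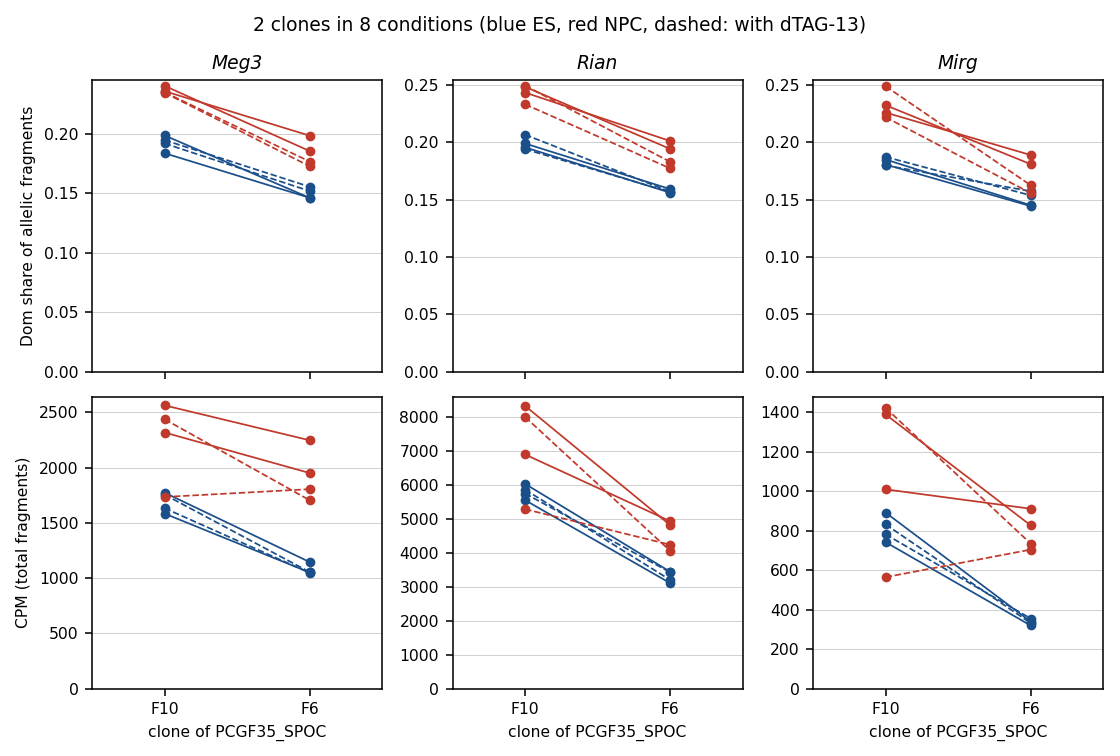
Dom share (top) and level in CPM (bottom) of Meg3, Rian and Mirg in clones F10 and F6 of PCGF35_SPOC, 1 point per library, with a line joining the clones within each of 8 matched conditions (blue for ES, red for NPC, dashed with dTAG-13). F10 lies above F6 in Dom share in 8 of 8 conditions for every gene.

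In DelPID_SPOC a clone described as tetraploid (G3) was compared with A8, and ploidy and clone cannot be told apart. Rian had Dom shares of 0.171 to 0.208 in A8 and 0.149 to 0.181 in G3, higher in A8 in 4 of 4 conditions (G3 minus A8 -0.20 ± 0.04 in the log2 ratio, adjusted p = 7.7e-05), and Meg3 was higher in A8 in 3 of 4 (-0.16 ± 0.05, adjusted p = 0.032). These were 2 of 3 members, against 4.68% of genes lower in G3, and Mirg did not pass (-0.14 ± 0.05, adjusted p = 0.077). With each library's chromosome 12 share as an offset all 3 passed, Mirg at -0.18 (adjusted p = 0.020). The Rian call held in all 8 leave-outs, and the Meg3 call was lost in 6, those of ES d0, NPC d3 and NPC d6 of either clone, with values from -0.21 to -0.12. Markers differed here too. Of the 12 feeder fibroblast, 8 endoderm or extraembryonic and 10 pluripotency markers listed, 6, 2 and 6 were higher in G3. A further pluripotency marker, 1 of the 10, was lower. Of all genes tested 15.9% were called in either direction, and the part of these markers was not tested. Limma on the shares called none of the 3. In level, 0 of 5 members passed by edgeR, where 15.9% of genes did, with 0 at an unadjusted p under 0.05 and 0 by DESeq2. Between the 3 SPOC clones, 0 of 3 members were called in Dom share and 0 of 4 tested in level by edgeR in any of 3 comparisons, against a background of 2.28, 0 and 0.00663% of genes in level and 0.0344, 0.817 and 0.559% in share. Of 9 share values 2, and of 12 level values 1, had an unadjusted p under 0.05, with none called by limma or DESeq2.

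Loss of PCGF3/5 by dTAG-13 was compared with untreated cells at 4 stages in each degron line. By edgeR 0 of 40 member values in level and 0 of 24 in Dom share were called, 0 had an unadjusted p under 0.05, DESeq2 and limma called 0, and 0% of all genes were called in any of these 16 comparisons. Fitted changes of the 3 non-coding RNAs ran from -0.61 to 0.19 in level (SE 0.28 to 0.43) and from -0.21 to 0.08 in the ratio of Dom to Cast (SE 0.18 to 0.19). In PCGF35 NPCs the treated libraries had the lower shares at both days without overlap. Over both lines and all stages 7 of 24 share values did not overlap. With so few libraries per group, groups that do not differ also separate often. How often other genes separate this way was not counted. On NPC d6 Rian was at 0.214 and 0.233 with dTAG-13 and at 0.244 and 0.253 without, and Meg3 at 0.205 and 0.225 against 0.236 and 0.241. On NPC d3 Rian was at 0.224 and 0.203 against 0.230 and 0.243. A fit on the pair of groups compared with the replicate number as a block leaves 1 residual degree of freedom. In it edgeR called the lower share on NPC d6 for Rian (-0.21, adjusted p = 9.9e-08) and Meg3 (-0.20, adjusted p = 0.0010). It also called the lower share of Rian on NPC d3 (-0.19, adjusted p = 0.037) and the lower level of Meg3 on NPC d6 (-0.31, adjusted p = 0.045). The study does not tie these numbers to experiments, so the pairing is not established. Over all genes tested in level, deviations of log2 CPM from the group means correlated by number at 0.19 on NPC d3 and 0.32 on NPC d6. No such correlation was computed for shares. In edgeR's fit over all groups the lowest unadjusted p of a share was 0.26. In PCGF35_SPOC the values overlapped in share at every stage. With the clone as a block, Rian was lower in level with dTAG-13 on NPC d3 of PCGF35_SPOC (-0.18, adjusted p = 0.0078), at 7996 and 4054 CPM against 8324 and 4813 CPM in F10 and F6, and no other call changed in that line.

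The SPOC mutation was read against the matched line without it in 8 comparisons, SPOC against WT, PCGF35_SPOC against PCGF35 and DelPID_SPOC against DelPID. By edgeR 0 of 40 level values and 0 of 24 share values passed, 0 and 1 had an unadjusted p under 0.05, and DESeq2 and limma called 0. Of all genes, 0.21% on NPC d3 and 0.0308% on NPC d6 were called in level for DelPID_SPOC, 0.0123% for PCGF35_SPOC in ES d1 and 0% in the others. In share the background was 0.12% and 0.0688% for SPOC on NPC d3 and d6, 0.0861% and 0.886% for DelPID_SPOC, 0.00861% for PCGF35_SPOC in ES d0 and 0% at its other stages. The value under 0.05 was Mirg in ES d0, with shares of 0.185 (F10) and 0.145 (F6) in PCGF35_SPOC and 0.1249 and 0.138 in PCGF35 (0.39 ± 0.19, adjusted p = 1.0). On NPC d6, SPOC had lower shares than WT without overlap, Rian at 0.215 and 0.207 against 0.239 and 0.236, which the fit did not call. Over the 8 comparisons 8 of 24 share values did not overlap. With so few libraries per group, groups that do not differ also separate often. How often other genes separate this way was not counted. Fitted level changes of the 3 RNAs lay between -0.50 and 0.45.

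Against WT, untreated PCGF35 and DelPID were compared as NPCs, using the WT libraries that also served the SPOC comparison. By edgeR 0 of 20 level values and 0 of 12 share values passed, 0 had an unadjusted p under 0.05, and DESeq2 and limma called 0. The background for PCGF35 on NPC d3 and d6 was 0.327% and 0.0493% in level and 5.05% and 4.74% in share, and for DelPID 1.5% and 1.25% in level and 8.45% and 8.54% in share. PCGF35 lay above WT in share for all 3 RNAs on both days without overlap, with Meg3 at 0.234 and 0.240 against 0.217 and 0.210 on NPC d3. Its fitted values did not pass, and the ratios of Dom to Cast of all 12 comparisons lay between -0.25 and 0.20. Of the 12 share values 7 did not overlap. With 2 libraries per group, groups that do not differ also separate often, and how often other genes do so was not counted.

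One day of doxycycline in ES cells was tested in 4 lines. By edgeR 0 of 20 level values and 0 of 12 share values were called, 0 had an unadjusted p under 0.05, DESeq2 and limma called 0, and the background was 0.0123 to 0.0247% in level and 0% in share. In SPOC, Meg3 was at 694, 578 and 600 CPM (C11, D9 and H1) before and at 859, 800 and 891 CPM after doxycycline, and Mirg at 477, 547 and 420 CPM and then at 652, 673 and 657 CPM, higher in 3 of 3 clones for each. With the clone as a block these passed (Meg3 0.41, adjusted p = 0.0016, Mirg 0.42, adjusted p = 0.0017). Under the same block in edgeR, Mirg passed in PCGF35_SPOC (0.17, adjusted p = 0.023), from 741 and 319 CPM to 891 and 339 CPM. Rian passed in share in DelPID_SPOC (0.08, adjusted p = 1.8e-47), where A8 stayed at 0.171 and only G3 moved, from 0.149 to 0.163. The fits of PCGF35_SPOC and DelPID_SPOC had 1 residual degree of freedom each, and that of SPOC, with 3 clones, had more. With 1 clone unchanged, the p of Rian does not measure how well the change repeats.

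Dlk1, the Notch-related protein of the cluster, stayed at trace level. It ranged from 0.254 to 2.70 CPM (median 1.02) in ES and from 0.352 to 2.01 CPM (median 0.866) in NPC libraries, on 1 to 44 fragments per library, and the stages overlapped. From ES d0 to NPC d6 its fitted change was below 0 in 6 of 6 comparisons, from -1.32 to -0.09, and none passed (lowest adjusted p = 0.17). That lowest value was untreated PCGF35, with 59 fragments in ES d0 and 17 in NPC d6, a ratio of 0.398 (0.217 to 0.692, counting error only). Too few allelic fragments fell on Dlk1 for the allele fit. Pooled over libraries, 53 of 256 in ES (0.207, 95% Wilson interval 0.162 to 0.261) and 53 of 169 in NPC (0.314, 0.248 to 0.387) were Dom, intervals that cover counting error only. Only 16 libraries reached 10 allelic fragments, and DelPID NPC d6 replicate 2 stood apart at a share of 0.8. The pooled ES interval lay below the flank medians of ES libraries, and the pooled NPC interval included those of NPC libraries.

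Rtl1 was counted at 0 to 0.494 CPM in ES, where 3 libraries had no fragment. From ES d0 to NPC d6 its fitted change was above 0 in 6 of 6 comparisons and passed in 3, on very few fragments. In SPOC, 2 fragments in ES d0 and 14 in NPC d6 gave a ratio of 13.5 per counted fragment (3.10 to 122). In PCGF35 it was 5 and 27 untreated (7.46, 2.83 to 24.8) and 3 and 23 with dTAG-13 (12.0, 3.61 to 62.2), with exact conditional intervals for counting error only. Fitted changes were 3.58 ± 1.19 (adjusted p = 0.019), 2.71 ± 1.02 (adjusted p = 0.042) and 3.44 ± 1.11 (adjusted p = 0.039). All 3 calls were lost in 2 or more leave-outs: in SPOC without C11 or D9 of ES d0 or D9 of NPC d6 (2.52 to 6.29 over the leave-outs), in untreated PCGF35 without replicate 1 of either stage (0.67 to 6.91), and with dTAG-13 without any 1 library (2.36 to 4.04). In DelPID_SPOC, Rtl1 passed with the clone as a block (2.75, adjusted p = 0.030). Its antisense neighbour 6430411K18Rik was at 45.2 to 349 CPM, and Rtl1 was at most 0.987% of it in any library, so a small leak of antisense reads to the wrong strand would be of the same size as the Rtl1 count and Rtl1 is uncertain. Over all libraries 19 of 113 allelic Rtl1 fragments were Dom (0.168).

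The domain between Begain and Dio3 holds 5 other annotated genes. Of 4 tested, 6430411K18Rik and Dio3, which encodes a deiodinase that inactivates thyroid hormone, rose from ES d0 to NPC d6 in DelPID_SPOC, 6430411K18Rik rose in SPOC, and none was called in the other 4 comparisons. Begain, at the proximal end of the domain, had a pooled Dom share of 0.291 in ES and 0.282 in NPC libraries, at the level of the flanks. At the distal end, Dio3os was below the flanks, at 0.169 (0.126 to 0.222) in ES and 0.182 (0.138 to 0.236) in NPC libraries. Dio3 was at 0.161 (0.0709 to 0.326) on 31 allelic fragments in ES and 0.0769 (0.0265 to 0.203) on 39 in NPC libraries. These intervals cover counting error only. Of 20 genes that guard or remodel imprints (DNA methyltransferases, Tet enzymes, Zfp57, Trim28, Polycomb subunits and others), all were tested. From ES d0 to NPC d6, 10 were higher and 1 lower in SPOC, where 17.3% of all genes were higher and 16.8% lower. In untreated PCGF35, 4 were higher and 5 lower, against 13.6% and 15.9% of all genes, and with dTAG-13, 2 and 3, against 4.46% and 6.95%. In DelPID_SPOC, 4 were higher and 1 lower, against 9.83% and 9.41%. In PCGF35_SPOC none was called untreated, against 2.9% and 4.47%, and 1 was higher and 1 lower with dTAG-13, against 2.33% and 3.04%. Between clones, 5 were higher and none lower in F6 than in F10, where 17.9% of all genes were higher and 17.3% lower.

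Genes of the domain from Begain to Dio3 were left out of a search for like patterns, and for level also genes within 1 Mb of it. The genes whose log2 level followed the members most closely over the 58 libraries, given as descriptions over libraries that share lines and stages, were Cachd1 (r = 0.92), Ror1 (r = 0.92) and Mapk4 (r = 0.91) for Meg3, Crmp1, Lin28b and Mapk4 for Rian (r = 0.90 for each), and Immt, Suv420h1 and Zfp827 for Mirg (r = 0.91 to 0.92). For Dlk1 the closest were Tmem63c, Oc90 and Ptgs1 (r = 0.65 to 0.67). In Dom share the same 3 autosomal genes outside the domain were closest to Meg3, Rian and Mirg, namely Slc1a3, Slc35f1 and Syne1 (r = 0.86 to 0.91). Slc1a3, a glutamate transporter, went from a mean Dom share of 0.207 in ES to 0.327 in NPC libraries. By the size of the rise in mean Dom share from ES to NPC libraries, Meg3 ranked 803rd, Mirg 832nd and Rian 846th of 11621 genes, and of 448 genes of chromosome 12 outside the domain 21 rose by more than Meg3.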

How the data were processed

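Chromatin-associated RNA was sequenced in 58 libraries. The authors removed ribosomal reads with Bowtie2 2.3.2, mapped the rest with STAR 2.4.2a to mm10 in which strain polymorphisms were masked, assigned reads to alleles with SNPsplit and counted strand-specific fragments over whole RefSeq transcript spans with featureCounts 1.5.2. The deposited values are whole-number counts per gene for all fragments, Cast fragments and Dom fragments, with no normalization. A separate deposited table of X-linked allelic ratios was not used.

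CPM used the total of all genes in a library, and FPKM the annotated span. Levels were tested with edgeR 4.0.16 (quasi-likelihood, TMM, R 4.3.3) over all 28 groups and 16227 genes that passed edgeR's filter on low counts. Dom share was tested as an allele-by-group term with a library term over 11621 autosomal genes with at least 10 allelic fragments in more than 80% of libraries, which Meg3, Rian and Mirg passed and Dlk1 and Rtl1 did not. Clones were compared within their line. P-values were adjusted by Benjamini-Hochberg over all genes tested, with a threshold of 0.05. The tests were tried on simulated data. Alternatives were DESeq2 1.42.0, limma 3.58.1 on the shares, other filters and size factors, fits on the groups compared alone and each library left out. Leave-out fits kept the dispersions of the full fit. Pooled shares have 95% Wilson intervals, which cover counting error only.

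Clones are the same cell lines at every stage, so clone names pair libraries. Over 11 comparisons the correlation of their deviations in level from the group means had a median of 0.66. Named genes are all 5 members, the lists given and the 3 genes most alike per member. The members and lists were chosen with earlier results of these data known. Comparisons with WT share its libraries, those with untreated PCGF35 and with ES d0 share theirs, so they are not independent.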

Additional observations from a re-analysis of the deposited data

How the results depend on the processing

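No called value changed direction. Counted over called genes and settings, the call was kept 96 times and lost 12 times under other settings, and kept 135 times and lost 55 times with 1 library left out. From ES to NPC, the 10 calls in level became 5 in fits on the pair of groups alone and 7 to 11 with a library left out, and DESeq2 gave 10. The 8 calls in Dom share became 3 with limma, 15 with the replicate block and 5 to 8 with a library left out. For the DelPID_SPOC clones, 2 calls in share became 0 with limma and 1 to 3 with a library left out, and 0 calls in level became 0 to 1. Fits on the pair of groups alone without a block gave 3 calls in share for dTAG-13, 1 for the SPOC mutation and 1 for a line against WT, where the fit over all groups gave 0.

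The replicate block by clone pairs the same cell lines, and its changed calls are given beside the results. In WT, PCGF35 and DelPID the replicates carry numbers, and the study describes duplicate experiments without tying the numbers to them. Their deviations in level had a median correlation of 0.19 over 13 comparisons, from -0.07 to 0.67. With the replicate block in either form, calls were 3 in share and 2 in level for dTAG-13, 2 and 1 for a line against WT, 1 and 3 for doxycycline and 9 in level from ES to NPC. By number, those within a line are given beside the results. Those between lines were a higher Meg3 share (0.20) and level (0.54) in PCGF35 than WT on NPC d3 and a lower Rian share in DelPID than WT on NPC d6 (-0.25), lines that nothing says were grown together. The cause was not tested. Depth limits Dlk1 and Rtl1, with at most 44 fragments in a library.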
